A study of Homo sapiens with 12 samples.

Results

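MALAT1, NEAT1 and LINC02154 are 3 long noncoding RNA genes of the 58735 genes counted in this series, and each symbol matched 1 Ensembl gene of the count table. NEAT1 was listed as an abundant nuclear RNA, whereas MALAT1 and LINC02154 were picked for their values in libraries of AG-205-treated cells. The response of the latter pair to AG-205 is therefore given as a description with no test, and tests are given for NEAT1 and for levels in the absence of AG-205. The study cultured 2 human endometrial cell lines: HEC-1A (HEC1A in the labels), an epithelial line from an endometrial cancer, and T-HESC, a telomerase-immortalised stromal line. Each line received AG-205, a small molecule described as a ligand of the membrane protein PGRMC1, at 15 µM for 32 h, or the solvent DMSO alone for 32 h. Polyadenylated RNA of 3 cultures per group was sequenced, giving 12 libraries of 7168542 to 15178276 counts. Each cell type is represented by 1 established line.

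The labels were checked against cell type markers. HEC-1A libraries held 7 of 7 epithelial markers above 1 CPM (counts per 1000000 counts, after scaling of the libraries), with EPCAM at a mean of 243 CPM in DMSO, and T-HESC libraries held 8 of 8 stromal markers. T-HESC cells had EPCAM at 0.333 CPM, CDH1 at 0.200 CPM and ESRP1 at 0.0609 CPM in DMSO. The keratins KRT8, KRT18 and KRT19 and the claudin CLDN4 stood there at 32.6, 155, 106 and 2.28 CPM. KRT19 was thus as high as in HEC-1A with DMSO, at 100 CPM. Of the 8 stromal markers, VIM, COL1A1 and COL1A2 were above 1 CPM in HEC-1A with DMSO, at 1.90, 4.26 and 2.71 CPM. Endothelial markers summed to at most 1.05 CPM and smooth muscle markers to at most 3.48 CPM in any library. Leukocyte markers summed to 2.50 to 2.71 CPM in T-HESC with DMSO, where PTPRC averaged 1.42 CPM and CD14 1.17 CPM, against 0.677 to 1.02 CPM with AG-205, and CD3E was at 0 in every library. One library stood apart, the first T-HESC replicate with AG-205: genes of ribosomal proteins took 6.80% of its counts against 2.94 to 3.86% in the other T-HESC libraries, and mitochondrial mRNAs 1.26% against 1.65 to 2.24%. Genes of low GC content lay at a median log2 level of 0.27 above the T-HESC DMSO libraries in it, and genes of high GC content at -0.23. In HEC-1A, the third AG-205 replicate had the smallest total, 7168542 counts, and the highest ribosomal protein share of the line, 5.07%.

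MALAT1 is retained in the nucleus, where it gathers in nuclear speckles, bodies rich in splicing factors. NEAT1 is the architectural RNA of paraspeckles, nuclear bodies assembled on its long form by proteins such as NONO and SFPQ, and a short polyadenylated form is made from the same start. MALAT1 and the long form of NEAT1 end without a conventional poly(A) tail: RNase P cuts each transcript just before a tRNA-like small RNA, and U-rich and A-rich tracts at the new end fold into a triple helix that shields it from degradation. No role of LINC02154 is given here.

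NEAT1 (ENSG00000245532) lies on the plus strand at chr11:65422774-65445540 in GRCh38 and its exons cover all 22767 bases of the gene, in 9 annotated transcripts of 512 to 22743 bases. MALAT1 (ENSG00000251562) follows it on the same strand at chr11:65497640-65508073, 52099 bases downstream, with exons covering all 10434 bases and 66 annotated transcripts. LINC02154 (ENSG00000235385) lies on the minus strand at chrX:13266041-13303452, with 3 exon blocks that sum to 1564 bases of a gene of 37412 bases. The sequences that set the ends of these RNAs are shown because the libraries were made from polyadenylated RNA. The first pair are the 100 bases before the tRNA-like small RNA of MALAT1 (chr11:65506017-65506116) and of NEAT1 (chr11:65445441-65445540), plus strand, with the U-rich tracts and the terminal A-rich tract in capitals.
MALAT1: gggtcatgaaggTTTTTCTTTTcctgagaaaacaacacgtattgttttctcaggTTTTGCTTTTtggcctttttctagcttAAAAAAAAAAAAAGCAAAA
NEAT1: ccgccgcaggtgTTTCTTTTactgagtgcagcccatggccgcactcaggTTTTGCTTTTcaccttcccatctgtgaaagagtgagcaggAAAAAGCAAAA
Each end held 2 U-rich tracts, and the A-rich tract was 19 bases with 17 A in MALAT1 and 11 bases with 9 A in NEAT1. The next pair are the last 60 bases of the short NEAT1 transcripts (chr11:65426454-65426513, plus strand) and of the LINC02154 gene model (chrX:13266041-13266100, minus strand), with the polyadenylation signal in capitals.
NEAT1 short form: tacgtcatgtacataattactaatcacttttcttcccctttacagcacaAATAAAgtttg
LINC02154: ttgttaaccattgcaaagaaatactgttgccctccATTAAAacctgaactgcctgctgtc
The signal was AATAAA in the short form of NEAT1 and the variant ATTAAA in LINC02154, with 5 and 19 bases after it. The counts are per gene, so the short and the long forms of NEAT1 were not separated, and how much of each form the polyA selection captured was not tested.

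By number of counts, with no correction for gene length, MALAT1 ranked from 1 to 192 among all genes in the 12 libraries. In HEC-1A, its level was 716, 493 and 553 CPM in the 3 DMSO libraries and 1317, 1009 and 1627 CPM in the 3 AG-205 libraries. Every AG-205 library of HEC-1A lay above every DMSO library, as did 16.4% of all genes tested in this line, and the group means were 1317 ± 309 and 587 ± 115 CPM (SD, n = 3). The log2 fold change of MALAT1 in HEC-1A was 1.17 (SE 0.17), with no test because the gene was picked for these values. Without the third AG-205 replicate, in which MALAT1 was highest, it was 0.98 (SE 0.11). Of 16 listed RNAs without a poly(A) tail 15 matched a gene and 5 were at 0 in every library, and together they took 0.00902 to 0.0118% of counts in HEC-1A with DMSO and 0.0158 to 0.0331% with AG-205. These shares did not overlap and the highest was again that of the third AG-205 replicate. Most of the counts behind them were of 1 gene, RN7SL2, with 817, 756 and 510 with DMSO and 1367, 1130 and 1888 with AG-205. H1-2 went from 134, 125 and 90 counts to 221, 229 and 195, whereas H4C3 went from 41, 46 and 44 to 33, 20 and 18. The part of these shares in the values of MALAT1 and NEAT1 was not tested. By number of counts MALAT1 ranked 109, 192 and 167 among all genes in the DMSO libraries and 39, 52 and 31 in the AG-205 libraries.

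In T-HESC, MALAT1 varied more between libraries of a group than between groups. Its level was 5865, 4668 and 1472 CPM with DMSO and 23829.6, 2928 and 2715 CPM with AG-205. The first AG-205 replicate was 4.06 times the highest of the other 5 T-HESC libraries, and the other AG-205 libraries lay between the lowest and the middle DMSO library. MALAT1 took 2.04% of all counts in that first replicate, where it ranked 1 among all genes. The group means were 9824 ± 12129 and 4001 ± 2271 CPM (SD, n = 3), and the log2 fold change was 1.30 (SE 0.91). Without the first AG-205 replicate, the log2 fold change of MALAT1 in T-HESC was -0.53 (SE 0.50), so its sign was set by that library. With weights for library quality it was -0.48 (SE 0.47). After correction for GC content and gene length it was 1.30 (SE 0.95) with all 6 libraries. The RNAs without a poly(A) tail took 0.00784% of counts in this first replicate and 0.00431 to 0.00595% in the other T-HESC libraries. RN7SL2 alone had 513 counts in this first replicate and 209 to 411 in the others. The part of that share and of the ribosomal protein share in the MALAT1 value was not tested.

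**Figure D1:**
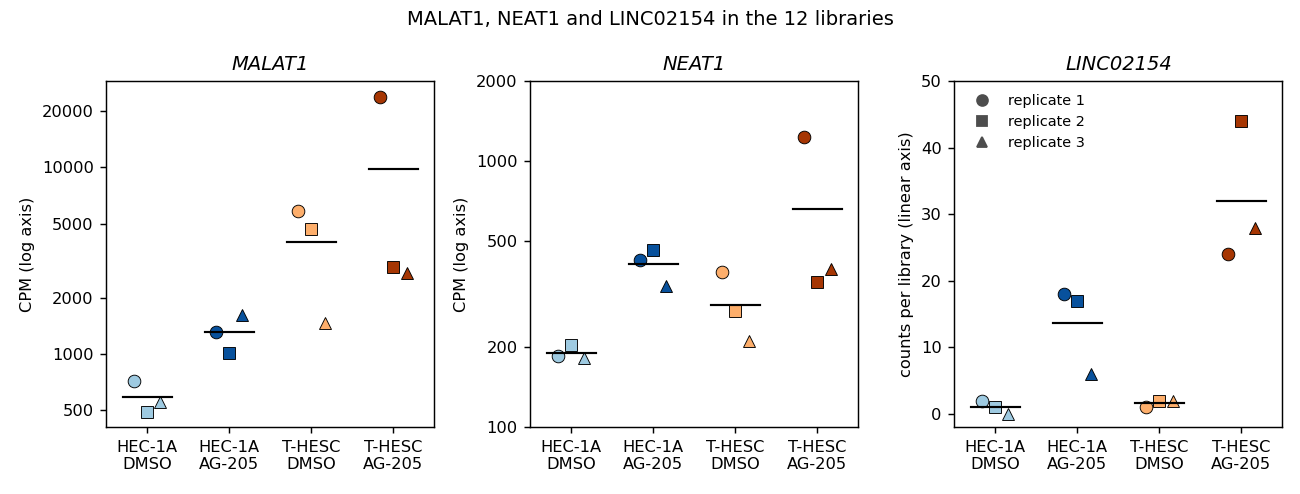
Levels of MALAT1 and NEAT1 (CPM, log axes) and counts of LINC02154 (linear axis) in each of the 12 libraries, 3 per group, with marker shapes for the replicate number and a line at the group mean. In T-HESC with AG-205 the first replicate stands at 23829.6 CPM for MALAT1 and 1234 CPM for NEAT1, above all other libraries, whereas its 24 counts of LINC02154 are the lowest of its group.

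NEAT1 was measured in the same way, and its response was tested. In HEC-1A, its level was 186, 204 and 182 CPM with DMSO and 424, 463 and 341 CPM with AG-205. All AG-205 libraries of HEC-1A lay above all DMSO libraries, as did 16.4% of all genes tested in this line. The lowest AG-205 value was that of the third replicate. NEAT1 rose 2.15-fold in HEC-1A with AG-205 (log2 fold change 1.10, SE 0.11), with a p of 5.43e-05 in the quasi-likelihood test of edgeR, adjusted after Benjamini and Hochberg across 14122 genes. It was 1 of the 2.58% of genes called higher, which took a log2 fold change above 1 besides an adjusted p under 0.05, and stood at rank 110 by p. The log2 fold change ranged from 1.01 to 1.21 when single libraries were left out, and it was 1.15 after correction for GC content and gene length. In a fit of all 12 libraries, which shares the wider spread of T-HESC, it was 1.10 with an edgeR adjusted p of 0.413.

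In T-HESC, the level of NEAT1 was 385, 273 and 210.5 CPM with DMSO and 1234, 352 and 394 CPM with AG-205. The groups overlapped, since the second AG-205 replicate lay below the first DMSO replicate, and the first AG-205 replicate was 3.13 times the highest of the other T-HESC libraries. The log2 fold change was 1.19 (SE 0.52), and in the quasi-likelihood test of edgeR the adjusted p was 0.942 across 13753 genes. In this line 0.08% of genes were called higher, 11 genes in all, and 740 genes (5.38%) had an unadjusted p under 0.05. Without the first AG-205 replicate the log2 fold change of NEAT1 was 0.34 (SE 0.26), with an edgeR adjusted p of 0.755.

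The effect of AG-205 on NEAT1 was compared between the lines with an interaction term over all 12 libraries. The effect in T-HESC minus that in HEC-1A was 0.09 on the log2 scale (SE 0.56), with an edgeR adjusted p of 1.00 over 16132 genes, of which 0.174% were called. Without the first T-HESC AG-205 replicate the difference was -0.74 (SE 0.29), with an edgeR adjusted p of 0.347. It was also below 0 without the third HEC-1A AG-205 replicate (-0.03) or the third T-HESC DMSO replicate (-0.10). A difference of the NEAT1 response between the lines was thus not detectable at this spread.

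**Figure D2:**
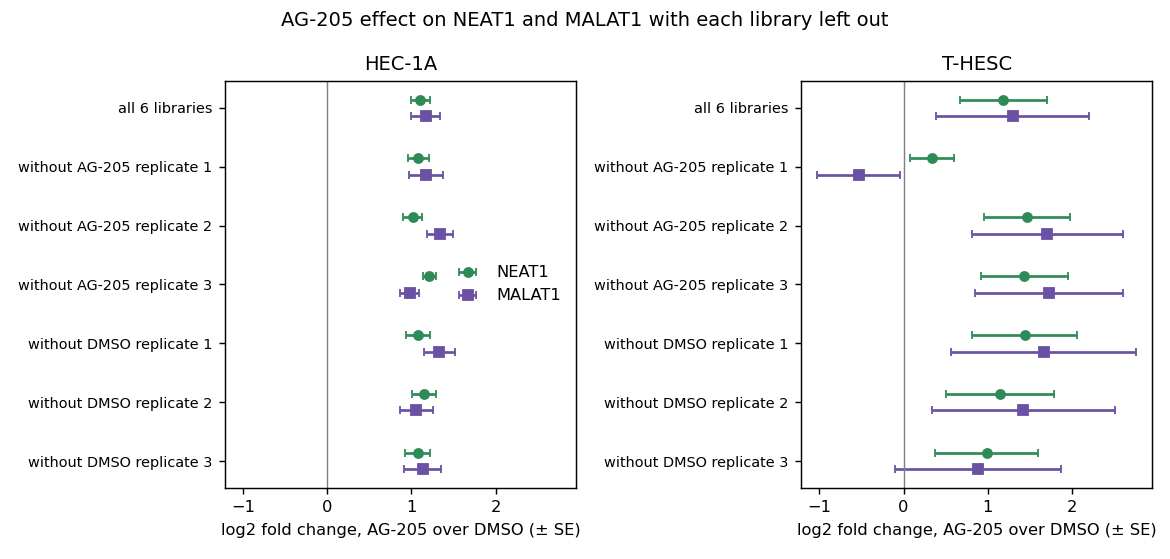
Log2 fold change of NEAT1 (circles) and MALAT1 (squares), AG-205 over DMSO, in HEC-1A (left) and T-HESC (right) with all 6 libraries of the line and with each left out in turn, with bars of 1 SE. In HEC-1A all values lie between 0.98 and 1.34, whereas in T-HESC leaving out the first AG-205 replicate takes NEAT1 from 1.19 to 0.34 and MALAT1 from 1.30 to -0.53.

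LINC02154 was near the limit of detection in the absence of AG-205. In HEC-1A it had 2, 1 and 0 counts in the DMSO libraries and 18, 17 and 6 counts in the AG-205 libraries. In T-HESC it had 1, 2 and 2 counts with DMSO and 24, 44 and 28 counts with AG-205. In both lines every AG-205 library lay above every DMSO library, which also held for 16.4% of genes tested in the epithelial and 6.23% in the stromal line, and the lowest AG-205 value was 6 counts in the third HEC-1A replicate, the library of smallest total.

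Summed over libraries, LINC02154 had 41 counts with AG-205 against 3 with DMSO in HEC-1A, a ratio per scaled total of 13.4 (95% exact interval 4.28 to 67.7). With single libraries left out this ratio ran from 9.24 without the third DMSO replicate to 26.6 without the first, when 1 count with DMSO was left (95% exact interval 4.51 to 1075). In T-HESC it had 96 against 5 counts, a ratio of 18.9 (95% exact interval 7.80 to 59.4) that ran from 14.7 to 22.5 with single libraries left out. These intervals cover counting error only and are no test, since the gene was picked for this response. In HEC-1A the mean level was 0.0814 ± 0.0823 CPM with DMSO against 1.07 ± 0.303 CPM with AG-205 (SD, n = 3). In T-HESC it was 0.147 ± 0.0643 against 2.63 ± 0.599 CPM (SD, n = 3). The filter on low counts removed LINC02154 in HEC-1A, while in T-HESC the fitted log2 fold change was 4.09 (SE 0.53). Unlike MALAT1 and NEAT1, LINC02154 was not highest in the first T-HESC AG-205 replicate, and without that library the fitted value was 4.20.

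The members were ordered by level per kilobase of exon, for NEAT1 over all 22767 bases. In HEC-1A with DMSO, MALAT1 stood at 56.3, NEAT1 at 8.37 and LINC02154 at 0.0520 CPM per kilobase. In T-HESC with DMSO the levels were 384, 12.7 and 0.0939 CPM per kilobase in the same order. The order MALAT1, NEAT1, LINC02154 held in all 4 groups, with 126, 18.0 and 0.683 CPM per kilobase in HEC-1A and 942, 29.0 and 1.68 CPM per kilobase in T-HESC with AG-205. Without the first T-HESC AG-205 replicate the values of that group were 270, 16.4 and 1.82 CPM per kilobase. On these lengths the ranges of neighbouring members did not overlap within any group. Over the 3524 bases of the longest annotated short transcript in place of the full length, NEAT1 stood at 51.6 to 57.9 CPM per kilobase in HEC-1A with DMSO, inside the range of MALAT1 of 47.2 to 68.6. The ranges of both genes then overlapped in HEC-1A with AG-205 too, and in T-HESC with AG-205 through the NEAT1 level of the first replicate, but not in T-HESC with DMSO.

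Between the lines without AG-205, MALAT1 was higher in T-HESC. Its 3 T-HESC DMSO libraries, at 1472 to 5865 CPM, all lay above the 3 HEC-1A DMSO libraries, at 493 to 716 CPM. The difference was 6.77-fold (log2 2.76, SE 0.45), with an adjusted p of 0.000507 in edgeR's quasi-likelihood test over 14789 genes, of which 22.3% were called higher in T-HESC. NEAT1 differed less, with 210.5 to 385 CPM in T-HESC against 182 to 204 CPM in HEC-1A. Its difference of 1.51-fold (log2 0.59, SE 0.20) had an edgeR adjusted p of 0.0237 but stayed under the fold limit, and 36.1% of genes passed the same adjusted p in that direction. Without any 1 of the HEC-1A DMSO libraries the edgeR adjusted p was 0.0508 to 0.0815, and after correction for GC content and gene length it was 0.264. Scaling by total counts shifted the median of all genes from -0.02 to -0.36 on the log2 scale and the calls from 3296 higher and 3297 lower to 2666 higher and 4383 lower. Under that scaling the MALAT1 difference was 2.41 and that of NEAT1 0.24, with an edgeR adjusted p of 0.280 for NEAT1. LINC02154 had at most 2 counts per DMSO library in either line, so no fold was given between the lines.

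MALAT1 and NEAT1 were set against each other in each library. There were 3.84, 2.42 and 3.04 MALAT1 counts per NEAT1 count in HEC-1A with DMSO and 3.11, 2.18 and 4.77 with AG-205, and these ranges overlapped. In T-HESC there were 15.2, 17.1 and 6.99 with DMSO and 19.3, 8.32 and 6.88 with AG-205, also overlapping with or without the first AG-205 replicate. All T-HESC libraries lay above all HEC-1A libraries in this ratio. Over the 12 libraries the Pearson correlation of log2(CPM + 1) between MALAT1 and NEAT1 was 0.79, and 0.87 after centring each line. Without the first T-HESC AG-205 replicate these values were 0.54 and 0.70. These points share cell line, treatment and scaling, and the first T-HESC AG-205 replicate was the highest of all in both genes. Within groups the 2 genes did not always move together: among HEC-1A AG-205 libraries the order by MALAT1 was the reverse of the order by NEAT1, and among HEC-1A DMSO libraries MALAT1 was lowest where NEAT1 was highest. Between LINC02154 and MALAT1 the correlation over the 12 libraries was 0.44, and between LINC02154 and NEAT1 it was 0.68, or 0.28 and 0.68 without that T-HESC replicate.

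**Figure D3:**
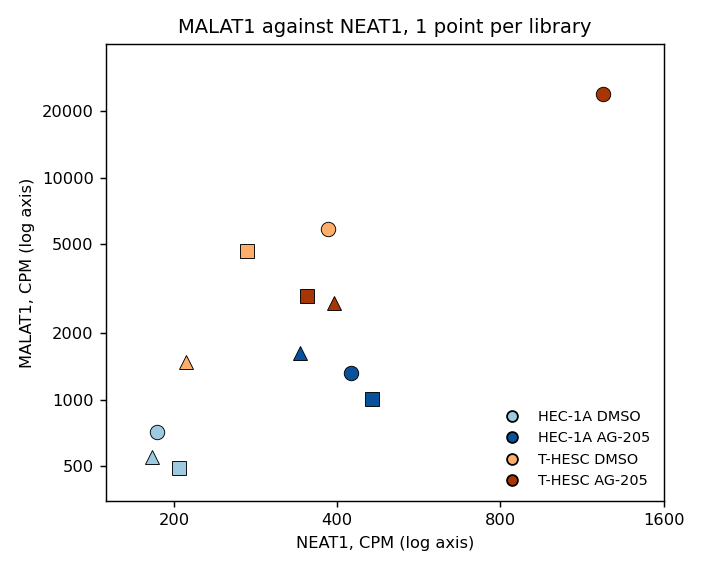
MALAT1 against NEAT1 level in each of the 12 libraries (CPM, both axes log), with circles, squares and triangles for replicates 1, 2 and 3. The T-HESC libraries lie above the HEC-1A libraries at a given NEAT1 level, and the first T-HESC AG-205 replicate lies apart at 1234 and 23829.6 CPM.

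Genes of the proteins that build paraspeckles fell or did not pass in HEC-1A, the line in which NEAT1 rose. Of 26 genes of paraspeckle proteins tested in HEC-1A, 0 passed both thresholds with AG-205, against 2.78% of all genes tested. At an adjusted p under 0.05 with no fold limit, 4 fell and 0 rose, against 4.28% of all genes falling. These were SFPQ, a core protein of paraspeckles that binds NEAT1, HNRNPH3, the chromatin remodeller SMARCA4 and FAM98A, with log2 fold changes of -0.31, -0.30, -0.38 and -0.35 and edgeR adjusted p values of 0.0334, 0.0469, 0.0393 and 0.0302.

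SFPQ had 513, 520 and 532 CPM in the HEC-1A DMSO libraries and 417, 426 and 415 CPM in the AG-205 libraries, with no overlap. In 20 of the 26 genes all AG-205 libraries lay below all DMSO libraries, against 15% of all genes tested. The median log2 fold change of the list was -0.20, against 0.01 over all genes tested, and it lay between -0.21 and -0.18 under the other scalings. In HEC-1A the medians of lists given below were -0.13 for nuclear speckle proteins, -0.10 for the nuclear exosome and -0.09 for MALAT1 end processing. They were 0.35 for other nuclear long noncoding RNAs and 0.05 for host RNAs of small nucleolar RNAs. Without the third HEC-1A AG-205 replicate 15 of the 26 genes fell, when 13.3% of 14461 genes tested fell, and 1 rose.
The most abundant members were HNRNPA1, HNRNPK and SFPQ, and the first 2 had log2 fold changes of -0.25 and -0.19 that did not pass (edgeR adjusted p = 0.124 and 0.253). NONO, the partner of SFPQ, was at -0.13 (edgeR adjusted p = 0.386). In T-HESC 0 of 26 genes passed in edgeR's quasi-likelihood test, against 11 of 13753 genes tested (0.08%). At that share a count of 0 says little about a list. The median was -0.15 against 0.02 over all genes.

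Genes of nuclear speckle proteins, the bodies in which MALAT1 resides, were counted in the same way. Of 24 tested in HEC-1A, 0 passed both thresholds, against 2.78% of all genes, and 2 fell with no fold limit, against 4.28% of all genes: U2AF2, a factor that recognises the 3′ splice site, at -0.38, and the kinase of splicing factors SRPK1 at -0.33 (edgeR adjusted p = 0.0239 and 0.0320). Without the third HEC-1A AG-205 replicate 9 fell, against 13.3% of all genes. The most abundant members, the speckle scaffold SRRM2, HNRNPC and the scaffold SON, had log2 fold changes of -0.20, -0.20 and -0.19 that did not pass. SRRM2 stood at 639 CPM in the third HEC-1A AG-205 replicate, against 1018 to 1196 CPM in the other 5 libraries of the line. In T-HESC it was lowest, at 216 CPM, in the first AG-205 replicate. In these 2 libraries the level of genes, set against the mean of the line, had Spearman correlations with gene length of -0.26 and -0.25. The other libraries lay between -0.13 and 0.26. The part of gene length in these SRRM2 values was not tested.

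The factors that make and guard the MALAT1 end were measured too. RPP21, a subunit of RNase P, was removed by the filter on low counts. Of the other 12 genes tested in HEC-1A, 0 passed both thresholds, and with no fold limit POP1, a scaffold subunit of RNase P, fell (log2 fold change -0.47, edgeR adjusted p = 0.0135), against 4.28% of all genes falling. POP1 had 39.7, 39.0 and 37.4 CPM with DMSO and 28.4, 25.2 and 30.5 CPM with AG-205 in HEC-1A, without overlap, as 15% of all genes tested lay in that direction. The most abundant of them, the nuclease ELAC2, which trims tRNA-like ends, the RNase P subunit POP7 and METTL16, which binds the MALAT1 triple helix, had log2 fold changes of -0.18, -0.13 and -0.18 that did not pass. In T-HESC 0 of 12 passed, against 0.08% of all genes tested there.

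The nuclear exosome degrades nuclear RNAs with the help of targeting factors. Of its 21 genes tested in HEC-1A, 0 passed both thresholds, and with no fold limit the core subunit EXOSC5 and the helicase MTREX fell, by 0.46 and 0.33 on the log2 scale, while the core subunit EXOSC6 rose by 0.32 (edgeR adjusted p = 0.0216, 0.0400 and 0.0371). Over all genes 4.28% fell and 7.35% rose. Without the third HEC-1A AG-205 replicate 8 fell and 1 rose, against 13.3% and 14.5% of all genes. The targeting factor ZC3H18, the cap-binding protein NCBP2 and the poly(A)-binding protein PABPN1, the most abundant members, had log2 fold changes of -0.22, -0.10 and -0.01 that did not pass. In T-HESC 0 of 21 passed, against 0.08% of all genes tested there, with a list median of 0.00.

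Other nuclear long noncoding RNAs were counted next. Of 11 listed genes 7 were tested in HEC-1A and 1 was called higher, against 2.58% of all genes, namely CDKN2B-AS1, which is transcribed antisense to CDKN2B and is known for recruiting Polycomb proteins. It had 8, 8 and 7 counts with DMSO and 26, 26 and 15 counts with AG-205 in HEC-1A. The change was 1.50 on the log2 scale (SE 0.30) at an edgeR adjusted p of 0.00650. CDKN2B-AS1 passed the filter on low counts through its AG-205 libraries alone. Its call is therefore given as a description and no support for a response. With no fold limit KCNQ1OT1, an imprinted antisense RNA, and FTX, an RNA of the X-inactivation centre, rose as well, by 0.50 and 0.47 on the log2 scale (edgeR adjusted p = 0.0228 and 0.0334), against 7.35% of all genes rising. In these 3 genes the AG-205 libraries lay above the DMSO libraries without overlap, as did 16.4% of all genes, whereas TUG1 was at -0.07 and did not pass. Reads of antisense RNAs such as CDKN2B-AS1 and KCNQ1OT1 can be told from those of the opposite gene only if counting used strand, which the sources used here do not state. MEG3, an imprinted RNA, had 1972 to 3922 counts in T-HESC DMSO libraries and 0 to 3 counts in those of HEC-1A. In T-HESC 0 of 10 passed with AG-205, against 0.08% of all genes tested there, and the list median was -0.07. KCNQ1OT1 was highest in the first T-HESC AG-205 replicate, at 32.2 CPM against 9.89 to 20.3 CPM in the other 5.
All other long noncoding RNA genes together took 0.779 to 0.811% of counts in HEC-1A with DMSO and 0.918 to 0.957% with AG-205, without overlap. In T-HESC they took 0.578 to 0.688% with DMSO and 0.554 to 0.868% with AG-205, with the highest share again in the first AG-205 replicate.

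Host RNAs of small nucleolar RNAs, which carry these small RNAs in their introns, were the last list. Of 15 tested, 0 passed in HEC-1A in either direction with or without a fold limit in edgeR's quasi-likelihood test, and 0 passed in T-HESC. Over all genes 7.35% rose and 4.28% fell in HEC-1A with no fold limit. In HEC-1A 2 of the 15 had an unadjusted p under 0.05, both lower, as did 1626 of 14122 genes in that direction. The most abundant, SNHG29, GAS5 and SNHG5, had log2 fold changes of 0.09, 0.08 and 0.28 in HEC-1A. The median of the list in T-HESC was 0.36, and it was -0.09 without the first AG-205 replicate. In T-HESC, 0 genes of the 6 lists passed both thresholds in edgeR's test or in DESeq2. Over all genes, 11 of 13753 passed higher in edgeR, and 100 higher and 15 lower of 15097 passed in DESeq2. In edgeR 0 of them had an unadjusted p under 0.05, against 5.38% of all genes tested. GAS5 had 236 CPM in that first AG-205 replicate and 98.2 to 130.1 CPM in the other T-HESC libraries.

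**Figure D4:**
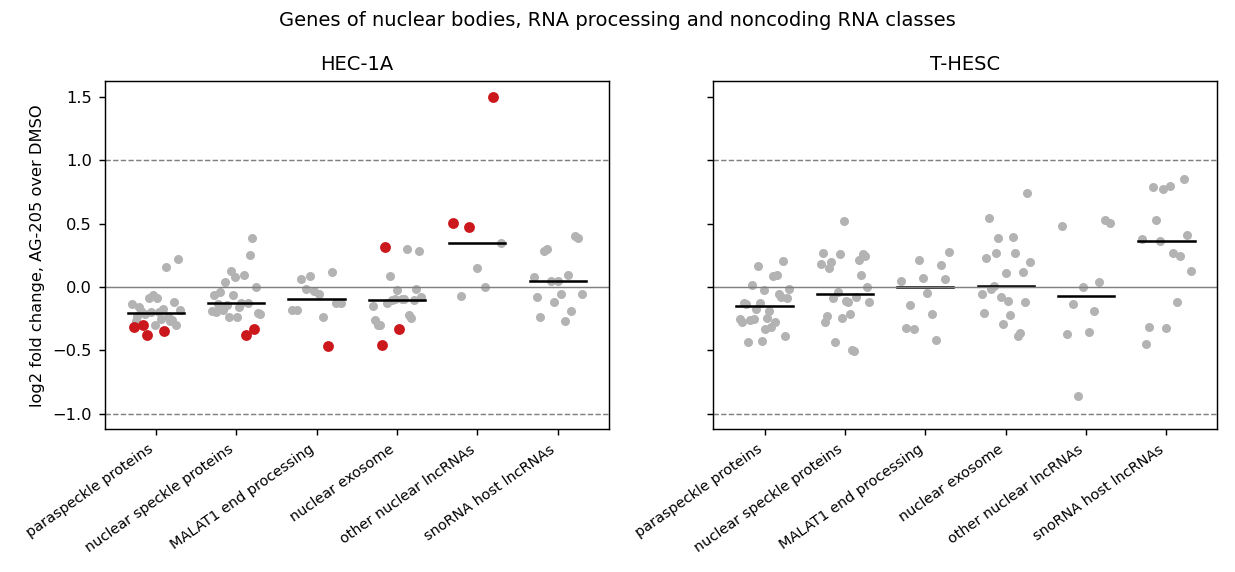
Log2 fold change with AG-205 of each tested gene of 6 lists in HEC-1A (left) and T-HESC (right). Red points passed an adjusted p under 0.05 in edgeR's test with no fold limit, grey points did not, black lines are list medians and dashed lines mark the fold limit of 1. In HEC-1A the 4 red paraspeckle genes lie below 0 and the 3 red nuclear noncoding RNAs lie above 0, and CDKN2B-AS1 at 1.50 is the single gene past the dashed line.

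The genes whose pattern was most like each member were found by Pearson correlation of log2(CPM + 1) over the 12 libraries. For MALAT1 they were MPST, CIR1, SLC33A1, ZBTB8A and TAF7, with correlations of 0.98 for each. Among T-HESC libraries all of them were highest in the first AG-205 replicate, at 1.33 to 2.40 times the highest of the other T-HESC libraries. With AG-205 in HEC-1A their log2 fold changes were 0.17 to 0.56. For NEAT1 they were ARPC1B, GATD1-DT, DPM3, TPT1-AS1 and MIR23AHG, with correlations of 0.92 to 0.94. They too were highest in that replicate among T-HESC libraries, at 1.46 to 3.19 times the highest of the others. MIR23AHG, the host transcript of microRNAs of the miR-23a cluster, had 15.3, 15.6 and 12.7 CPM with DMSO and 34.1, 43.0 and 34.0 CPM with AG-205 in HEC-1A. The log2 fold changes of the 5 genes with AG-205 in HEC-1A ran from 0.43 for ARPC1B to 1.35 for MIR23AHG. No test is given for these genes, since they were found by likeness to the members over the same libraries. When the search was repeated without the first T-HESC AG-205 replicate, 0 of the 5 genes of MALAT1 and 0 of the 5 genes of NEAT1 were among the 5 nearest, although their correlations over the other 11 libraries were still 0.95 to 0.96 and 0.80 to 0.90.

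For LINC02154 similar genes included TMEM53, SQLE, MSMO1 and SCML1, with correlations of 0.94 to 0.97. Without the first T-HESC AG-205 replicate 2 of its 5 nearest genes were among the 5 nearest again. SQLE and MSMO1 encode enzymes of cholesterol synthesis. SQLE had 51.4, 49.9 and 51.9 CPM with DMSO and 159, 165 and 165 CPM with AG-205 in HEC-1A, and 36.4, 46.6 and 46.7 CPM with DMSO and 214, 289 and 225 CPM with AG-205 in T-HESC. AG-205 and DMSO libraries did not overlap in either line, and the first T-HESC AG-205 replicate was the lowest of its group, as it was for LINC02154. MSMO1 was highest in that replicate, at 801 CPM against at most 780 CPM in the other T-HESC libraries. The log2 fold changes of SQLE and MSMO1 were 1.67 and 2.63 in HEC-1A, and 2.48 and 3.30 in T-HESC. LINC02154 was picked on AG-205 values, so that its likeness to genes with a large AG-205 response is part of how it was chosen.

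**Figure D5:**
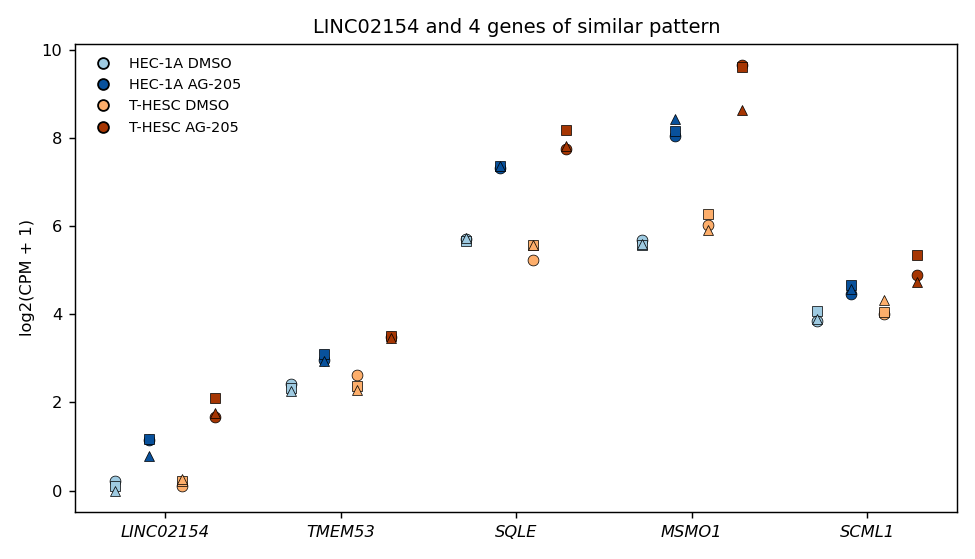
Levels (log2(CPM + 1)) of LINC02154 and 4 genes of similar pattern in each of the 12 libraries, with colours for the group and circles, squares and triangles for replicates 1, 2 and 3. In each gene the AG-205 libraries of a line lie above its DMSO libraries, and LINC02154 lies lowest, at 0.719 to 3.31 CPM with AG-205.

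Genes near the members were examined next. Of 36 counted genes within 200 kb of NEAT1 or MALAT1, 17 could be tested in the epithelial and 16 in the stromal line, and 0 passed at an adjusted p under 0.05 in edgeR's quasi-likelihood test with AG-205 in either line. Over all genes tested, 7.35% rose and 4.28% fell at that threshold in HEC-1A, and 11 of 13753 passed in T-HESC. The log2 fold changes of these neighbours ran from -0.31 to 0.69 in HEC-1A. There 2 of them (ZNRD2 and ZNRD2-DT) had an unadjusted p under 0.05 in edgeR's test, counting either direction. Over all genes, 1626 of 14122 had such a p in the lower direction alone. The share for either direction was larger still, so these 2 are no finding about the neighbours. Within 200 kb of LINC02154, 1 of 6 counted genes was tested, the pseudogene GPX1P1, whose log2 fold changes of -0.22 (HEC-1A) and 0.43 (T-HESC) did not pass. Small gene models inside MALAT1 and NEAT1 and a short antisense model over 610 bases of MALAT1 had 0 counts in every library. All bases of these models lie within exons of MALAT1 or NEAT1. How reads shared by 2 genes were counted is not given in the sources used here, so these zeros are no measure of the models. An antisense gene, TALAM1, covers 77.8% of MALAT1 in the annotation used here, and its reads were not counted apart.

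A promoter window was given for 1 of the 3 members in the RefSeq table of GRCh38.p14, as 2 windows of MALAT1 from 250 bases before to 50 bases after a start. The first is printed because it lies at the start of MALAT1, the member with the most counts, chr11:65497488-65497787, plus strand, with GC boxes in capitals.
MALAT1 window 1: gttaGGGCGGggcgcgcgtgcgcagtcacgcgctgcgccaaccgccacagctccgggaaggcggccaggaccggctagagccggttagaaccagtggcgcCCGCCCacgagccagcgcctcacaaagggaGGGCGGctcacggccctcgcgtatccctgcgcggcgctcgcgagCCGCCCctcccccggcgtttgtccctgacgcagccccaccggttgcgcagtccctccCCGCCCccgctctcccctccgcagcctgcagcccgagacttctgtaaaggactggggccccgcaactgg
It held the GC box GGGCGG 5 times, counting both strands, and 45.0% of 35116 promoter windows hold it at least once. The other window, chr11:65498795-65499094, held the TATA box TATAAA 30 bases before the start, as 11.5% of windows do anywhere. Neither window held the NF-Y box CCAAT, the AP-1 site TGACTCA, the CRE TGACGTCA or the E-box CACGTG, which are found in 34.6%, 4.95%, 1.85% and 7.26% of windows. These motifs were searched on both strands and do not overlap each other in either window.

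In RNA from whole cultures, fewer cells of a type and less RNA per cell cannot be told apart. The 3 cultures of a group are stated to be independent experiments, although nothing ties an AG-205 library to a DMSO library of the same experiment. The p values judge a difference of group means against the spread between these libraries.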

How the data were processed

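The 12 libraries hold 3 cultures per group. Per the labels and methods, the authors used Trimmomatic 0.38 for trimming, HISAT2 2.1.0 for alignment to GRCh38 and, for the counts per gene, featureCounts of Subread 2.0.0 and an Ensembl annotation. They deposited raw counts, without normalization. Strandedness of the counting and the treatment of reads with several matches are not given in the sources used here.

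Counts were analysed with edgeR 4.0.16 in R 4.3.3: filterByExpr, TMM scaling, and the quasi-likelihood test with Benjamini-Hochberg adjusted p values across the genes tested, in each line apart as in the study, in the DMSO libraries between lines, and over 12 libraries for the difference of effects. CPM were set on the TMM scale of the 12 libraries, and log2 levels had a pseudocount of 1. Calls needed an adjusted p under 0.05 and an absolute log2 fold change above 1. With 3 against 3, a permutation test of 1 gene cannot give a p under 0.1, so models across genes were used. Libraries of a group differed by a chi-square per degree of freedom of at least 1.79, so none was a copy. At an adjusted p under 0.05 with no fold limit, simulated 4-fold changes were recovered in 95 of 96 genes in HEC-1A and 66 of 98 in T-HESC. Simulated 2-fold changes were recovered in 82 of 96 and 5 of 97 at that threshold. Recovery under the fold limit of the calls was not counted.

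The members and gene lists were chosen with earlier results of these data known. Genes named are the members, the 5 genes of highest correlation with each, list genes past the thresholds and otherwise the 3 most abundant of a list, and neighbours within 200 kb; list genes that passed without the fold limit, NONO, SMARCA4 and others beside these were named after their values were seen. A gene that this rule names is not reported here. Alternatives were DESeq2 1.42.0, other scalings and filters, a replicate block, all 12 libraries in 1 fit, quality weights (limma 3.58.1), mitochondrial genes removed, other thresholds and single libraries left out. Correction for GC content and length (mgcv 1.9.3), list medians under each scaling, and correlations, levels per kilobase and count ratios without single libraries or over the short form of NEAT1 were chosen after seeing the data. Positions came from GENCODE, and plots were drawn with matplotlib 3.10.9.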

Additional observations from a re-analysis of the deposited data

How the results depend on the processing

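In HEC-1A the NEAT1 response kept its direction in 20 of 20 alternatives and its call in 19, and lost it with all 12 libraries in 1 fit (log2 fold change 1.10). The T-HESC response of NEAT1 passed in 0 of 20 alternatives (0.34 to 1.47). The difference of the NEAT1 effects (0.09) turned to -0.77 with quality weights, to -0.11 with the replicate block and to -0.19 with the GC and length correction with that block. With single libraries left out it ran from -0.74 to 0.37, and below 0 without the third HEC-1A AG-205 (-0.03), the first T-HESC AG-205 (-0.74) or the third T-HESC DMSO replicate (-0.10). The line difference of NEAT1 passed with no fold limit (0.59, edgeR adjusted p = 0.0237), but its adjusted p was 0.0810 with upper-quartile scaling, 0.280 with total counts, 0.215 with all 12 libraries, 0.264 with the GC and length correction (0.192 with the block) and 0.0508 to 0.0815 without 1 HEC-1A DMSO library. MALAT1 in T-HESC turned to -0.48 with quality weights and ran from -0.53 to 1.72 with libraries left out, while its line difference passed in 20 of 20 alternatives (2.27 to 3.19). With libraries left out LINC02154 ran from 3.09 to 4.41 in HEC-1A (fitted values where it passed the filter, otherwise log2 ratios of summed counts) and from 3.76 to 4.33 in T-HESC (fitted). With no fold limit the list counts in HEC-1A were 4 paraspeckle, 2 speckle, 1 end processing, 3 exosome and 3 other noncoding RNA genes, and the call of CDKN2B-AS1 was lost with all 12 libraries in 1 fit (0).

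Deviations of same-numbered AG-205 and DMSO libraries correlated at -0.09, 0.29 and -0.00 in HEC-1A and at 0.19, -0.53 and -0.02 in T-HESC. With 3 libraries per group, each set against its group mean, these values cannot settle whether replicate numbers pair the libraries. With the replicate block the log2 fold change of NEAT1 was 1.10 (HEC-1A) and 0.97 (T-HESC). Its SE in T-HESC was 0.37 with the block against 0.52 without it. For MALAT1 in T-HESC the block gave 0.74 (SE 0.53) against 1.30 (SE 0.91). The genes called with the block were 335 higher and 28 lower, against 364 and 29, in HEC-1A and 9 against 11 in T-HESC. Over all genes, calls in T-HESC depended most on the setting: 11 higher and 0 lower became 100 and 15 with DESeq2, 145 and 36 without a filter, 133 and 27 with all 12 libraries, 230 and 103 with quality weights, 69 and 3 without the first AG-205 replicate, and 0 without the second AG-205 or any DMSO replicate. In HEC-1A they were 135 and 6 with all 12 libraries in 1 fit and 543 and 46 without the third AG-205 replicate. The spread between T-HESC libraries (biological coefficient of variation 33.6%, against 10.1% in HEC-1A) limits what can be seen there, and the counts of LINC02154 limit its ratio.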
